A study of Mus musculus with 24 samples.

Results

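The chemokines and their receptors were followed in mouse liver as a family of 51 genes. A gene belonged to it if its current symbol was that of a CC or CXC ligand or receptor with a number (Ccl, Cxcl, Ccr or Cxcr), or was Cx3cl1, Cx3cr1, Xcl1 or Xcr1, and if a probe set carried that symbol alone. The family took 51 of the 22180 genes with such a probe set, and each gene was read from its probe set with the highest mean. Only Ccl27a had 2 to choose from. A further 33 probe sets carried several symbols, at least 1 of them a chemokine of the family (copies of Ccl19, Ccl21 and Ccl27b), and were not counted as members.

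Livers came from male C57BL/6J mice, 1 mouse per array, with 4 mice in each of 6 groups: HFD-EPA/DHA, HFD-corn oil and control for 12 weeks, and the same diets for 8 weeks. Coconut oil made up most of the fat of both high-fat diets and corn oil was in both, and in HFD-EPA/DHA a part of the corn oil was replaced by oils rich in the n-3 fatty acids EPA and DHA. Both high-fat diets (HFDs) differed from the control diet in added cholesterol and a higher sucrose content as well as in fat. The 12-week mice started at 10 weeks of age and the 8-week mice at 9 weeks, in separate studies, so time and study cannot be told apart. The arrayed mice had been picked from each diet group by their body weight, plasma triglycerides and plasma cholesterol. Replicate 3 of HFD-corn oil at 8 weeks, which the study left out as standing apart, entered no test, so that group had 3 arrays and 23 arrays were fitted. Array medians lay between 7.14 and 7.21 on the log2 scale. All 9 measured hepatocyte markers lay above the median probe set, as did 13 of 15 Kupffer cell and macrophage markers, 9 of 9 of sinusoidal endothelium and 9 of 9 of stellate cells, against 0 of 9 of neutrophils and 2 of 7 of monocytes.

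Chemokines are small secreted proteins that draw leukocytes along gradients through receptors coupled to G proteins. Inflammatory ligands such as CCL2, CXCL1 and CXCL9 are induced in resident cells and call in monocytes, neutrophils and T cells, whereas homeostatic ligands such as CXCL12 and CXCL13 keep lymphocytes and progenitors in place. In liver they are made by Kupffer cells, sinusoidal endothelium, stellate cells and hepatocytes, and their receptors sit mainly on the leukocytes that pass through.

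Of the 51 genes, 28 had a mean signal above the median of all probe sets (7.16 on the log2 scale) and 23 lay below it. On all 23 arrays 22 genes exceeded the array's own median, 16 stayed below it on all of them and 13 crossed it. The count was higher among ligands than among receptors. Above the median lay 11 of 13 CXC ligands and 10 of 19 CC ligands, but 3 of 6 CXC receptors and 1 of 9 CC receptors, which was Ccr7, the lymph node homing receptor. The genes nearest to the line were Cxcl15 (7.19), Ccl2 (7.34) and Cxcr4 (7.42) above it, and Ccl4 (7.16), Cxcr1 (7.12) and Ccr2 (6.98) below it. Signals of different probe sets depend on their probes and do not rank the transcripts, and the table gives no detection call, so dim members may be at background.

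The brightest members were Cxcl12 (11.42), the ligand of CXCR4, Ccl9 (11.17), a ligand of CCR1 in the mouse, and Cxcl9 (10.27), an interferon-induced ligand of CXCR3. These 3 lay above 90% of all probe sets. They were followed by Cxcl16 (9.93), the membrane-bound ligand of CXCR6, Ccl7 (9.15), a monocyte attractant, Cxcl13 (8.77), which attracts B cells through CXCR5, and the CCR6 ligand Ccl20 (8.56). Ccl6 (8.54), Ccl27a (8.45) and Ccl5 (8.16) completed the first 10, and the dimmest gene was the eosinophil receptor Ccr3 (5.52). Mice of one group differed little in most members: the median SD within groups was 0.17 on the log2 scale, against 0.16 over all probe sets. Cxcl13 (SD 0.60), Cxcl9 (SD 0.42), Cxcl1 (SD 0.38) and Ccl2 (SD 0.30) varied most between mice fed alike, above 99.7%, 98.9%, 98.5% and 96.0% of all probe sets.

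**Figure D1:**
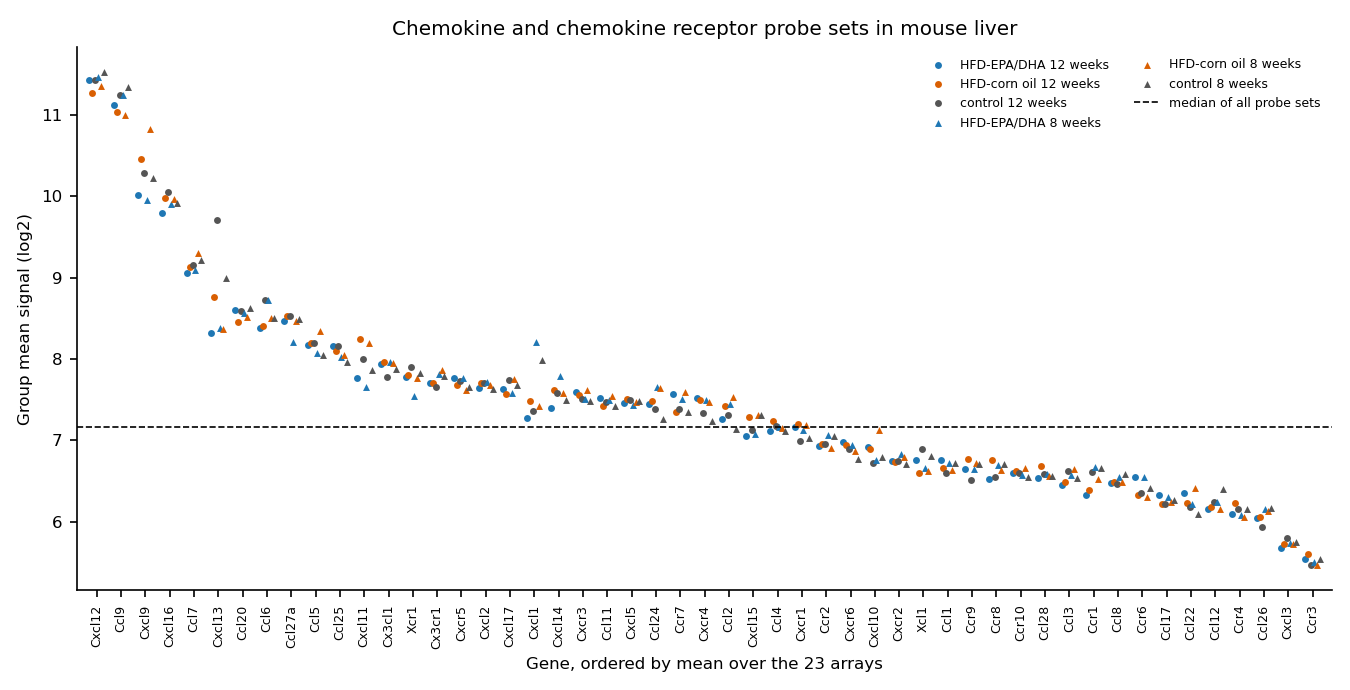
Mean signal (log2) of each of the 51 genes in the 6 groups, ordered by the mean over the 23 arrays; circles are 12-week and triangles 8-week groups, and the dashed line is the median of all probe sets at 7.16. The 28 genes on the left lie above the line on average, and Cxcl13, Cxcl9, Cxcl11 and Cxcl1 show the widest gaps between groups.

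The diets were compared in a single limma model with 1 mean per group, and a gene was called at a Benjamini-Hochberg adjusted p under 0.05, with all 41345 probe sets in the adjustment. Cxcl13 was the only member called in any comparison. It was lower in mice on both HFDs than in control mice, over both times (1 of 51 members, where 2.74% of all probe sets were called). Before adjustment, 10 of the 51 members had p under 0.05 in that comparison, against 12.1% of all probe sets. The higher ones among them were Cxcr4, Ccl24, Ccl22 and Cxcr1, and the lower ones Cxcl13, Ccl9, Xcl1, Ccr1, Xcr1 and Ccl12. Over both times HFD-EPA/DHA relative to HFD-corn oil gave 0 calls (0.0653% of all probe sets) and 4 members with unadjusted p under 0.05 (7.21%), which were Cxcl9, Cxcl11 and Cxcl15 on the lower side and Ccr6 on the higher side.

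At single times no member was called by limma. At 12 weeks the members with unadjusted p under 0.05 were 4 for HFD-EPA/DHA vs. control, all on the lower side (8.44% of all probe sets, with 0.617% called), 5 for HFD-corn oil vs. control (8.53%, with 0.179% called) and 4 for HFD-EPA/DHA relative to HFD-corn oil (4.63%, with 0.00967% called). At 8 weeks they were 5 for HFD-EPA/DHA vs. control (8.05%, with 0.443% called), 7 for HFD-corn oil vs. control (8.23%, with 0.738% called) and 5 for HFD-EPA/DHA relative to HFD-corn oil (6.92%, with 0.0266% called). The moderated F test for any difference among the 6 groups called 0 members, with 5 at unadjusted p under 0.05 (9.91% of all probe sets, with 1.14% called) and a smallest adjusted p of 0.133, that of Cxcl1. The counts of the family were not tested against these shares. Where groups are said below not to overlap, the share of all probe sets that do the same was not counted. Such a separation is therefore a description only. With 3 or 4 mice per group, the 95% confidence interval of the log2 fold change lay within ±0.5 for 45 of 51 members in HFD-EPA/DHA vs. control at 12 weeks and for 39 of 51 at 8 weeks.

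Cxcl13 encodes a chemokine that draws B cells and follicular helper T cells into lymphoid follicles. At 12 weeks its log2 signals were 8.03, 8.18, 8.41 and 8.65 in the HFD-EPA/DHA mice, against 9.31, 9.09, 9.62 and 10.79 in the control mice. All 4 HFD-EPA/DHA mice lay below all 4 control mice. The HFD-corn oil mice, with 9.86, 7.52, 9.04 and 8.61, overlapped both. At 8 weeks the values were 7.85, 8.60, 8.83 and 8.27 on HFD-EPA/DHA and 8.21, 8.20 and 8.70 on HFD-corn oil, against 8.41, 9.22, 8.85 and 9.51 in control mice, and the groups overlapped. The array left out had 7.58, below every other HFD array of that time.

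Over both times the log2 signal of Cxcl13 was lower by 0.89 ± 0.23 in HFD than in control mice (SE, 15 arrays against 8). The 95% confidence interval was −1.36 to −0.42, the adjusted p in limma was 0.0292, and the signal was 0.539 times that of control mice. Group means at 8 and 12 weeks were 8.38 and 8.32 on HFD-EPA/DHA and 8.37 and 8.76 on HFD-corn oil. In control mice they were 9.00 and 9.70. The separate differences from control at 12 weeks were −1.38 ± 0.37 (adjusted p = 0.104) with EPA/DHA and −0.95 ± 0.37 (adjusted p = 0.434) with corn oil. At 8 weeks they were −0.61 ± 0.37 (adjusted p = 0.747) with EPA/DHA and −0.63 ± 0.40 (adjusted p = 0.749) with corn oil. All 4 had the same sign, and they share the control mice of their time. The HFDs differed from each other by −0.21 ± 0.27 (adjusted p = 0.896), and the difference between HFD-EPA/DHA and control was not shown to change with time (−0.77 ± 0.52, adjusted p = 0.983). Cxcr5, its receptor, was at 7.76 ± 0.14 on HFD-EPA/DHA, 7.68 ± 0.10 on HFD-corn oil and 7.73 ± 0.16 in control mice at 12 weeks (SD, n = 4 each).

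The call of Cxcl13 was lost when any 1 of 5 arrays was left out: control replicates 2 (adjusted p = 0.0687) and 4 (adjusted p = 0.0901) at 8 weeks, HFD-corn oil replicates 1 (adjusted p = 0.0516) and 2 (adjusted p = 0.0536) at 8 weeks, and control replicate 4 at 12 weeks (adjusted p = 0.0965). Without the last of these, which had the highest signal of all, the log2 fold change was −0.71.

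Since bulk liver was measured, fewer cells of a type and less RNA per cell cannot be told apart. Kupffer cell and macrophage markers moved with Cxcl13 at 12 weeks: their summed signal was 9990 to 12500 on HFD-EPA/DHA and 10500 to 12500 on HFD-corn oil, against 10900 to 14200 in control mice. Of the 15 markers, 12 were below 0 in each HFD vs. control at 12 weeks, with median log2 fold changes of −0.26 and −0.18, and 0 were called (0.617% and 0.179% of all probe sets). At 8 weeks the same medians were 0.08 on HFD-EPA/DHA and 0.18 in HFD-corn oil mice, opposite in sign to Cxcl13. Sinusoidal endothelial markers had the same signs (HFD-EPA/DHA first), with medians of −0.13 and −0.06 at 12 weeks, and 0.06 and 0.14 at 8 weeks. T cell markers did too, with −0.09 and −0.05 at 12 weeks, and 0.05 on each HFD at 8 weeks. For neutrophils, NK cells, B cells, dendritic cells, stellate cells and cholangiocytes the medians at 12 weeks were above 0 on both HFDs. Those of hepatocytes and monocytes were below 0. Across the 23 mice, after the group means were removed, Cxcl13 followed the mean of the Kupffer cell and macrophage markers (Pearson's r = 0.59, adjusted permutation p = 0.015, Spearman's rho = 0.64, adjusted permutation p = 0.019), with r = 0.57 without the 2 mice farthest out in Cxcl13, r = 0.68 at 12 weeks and r = 0.65 at 8 weeks. With the mean of 6 B cell markers it gave r = 0.37 (adjusted permutation p = 0.38) and rho = 0.32 (adjusted permutation p = 0.36), with r = 0.48 without the 2 mice farthest out, r = 0.30 at 12 weeks and r = 0.54 at 8 weeks. Each p is two-sided and adjusted over the 7 relations computed, none of which used the endothelial or T cell markers. The part of any cell type in the Cxcl13 difference was not tested.

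The promoter of Cxcl13 is shown because it is the only member called. The sequence is that of RefSeq in build GRCm38.p6, chr5:95956689-95956988 on the + strand, from 250 bases before to 50 bases after the annotated start, and no stretch is in capitals because it holds neither of the motifs searched in the promoters of the CXCR3 ligands. Other forms of those motifs were not searched, so their absence is not shown.
Cxcl13: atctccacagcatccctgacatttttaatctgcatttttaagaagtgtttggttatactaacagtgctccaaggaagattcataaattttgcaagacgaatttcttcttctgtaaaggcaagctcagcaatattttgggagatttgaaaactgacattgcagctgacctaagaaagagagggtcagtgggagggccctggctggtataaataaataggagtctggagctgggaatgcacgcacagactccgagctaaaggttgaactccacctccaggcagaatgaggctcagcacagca

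Cxcl9, Cxcl10 and Cxcl11, which lie on chromosome 5, encode the interferon-induced ligands of CXCR3, the receptor of activated T cells and NK cells. C57BL/6 mice are known to carry a frameshift in Cxcl11 and to make no functional CXCL11, so its values here are those of a transcript only. At 8 weeks Cxcl9 was at 10.0, 9.48, 10.72 and 9.64 on HFD-EPA/DHA, against 10.54, 11.22 and 10.74 on HFD-corn oil, and 9.88, 10.16, 9.86 and 10.98 in control mice. Only 1 of the 4 HFD-EPA/DHA mice reached the range of the HFD-corn oil mice. At 12 weeks it was at 9.72, 9.86, 9.84 and 10.61 on HFD-EPA/DHA, against 10.30, 10.57, 10.60 and 10.35 on HFD-corn oil. Control mice of that time had 9.785, 10.6, 10.45 and 10.27. There 3 of 4 HFD-EPA/DHA mice lay below all HFD-corn oil mice, and the fourth lay above them.

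Cxcl11 was at 7.71, 7.93, 7.61 and 7.81 on HFD-EPA/DHA at 12 weeks, against 8.12, 8.06, 8.42 and 8.40 on HFD-corn oil, with no overlap. Control mice of that time had 8.09, 8.00, 7.84 and 8.07. From these, HFD-EPA/DHA differed by −0.235 ± 0.19 and HFD-corn oil by 0.248 ± 0.19 (SE, adjusted p = 0.828 and 0.781, limma). At 8 weeks it was at 7.71, 7.31, 8.06 and 7.53 on HFD-EPA/DHA, against 7.62, 8.73 and 8.24 on HFD-corn oil, where the groups overlapped. Control mice then had 7.94, 7.64, 8.32 and 7.56. Cxcl10 had 6.54, 7.06, 6.73 and 6.72 on HFD-EPA/DHA at 8 weeks, against 6.97, 7.27 and 7.14 on HFD-corn oil, while the group means at 12 weeks were 6.92 ± 0.33 on HFD-EPA/DHA and 6.90 ± 0.18 in HFD-corn oil mice (SD, n = 4 each).

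Over both times the log2 difference of HFD-EPA/DHA from HFD-corn oil was −0.51 ± 0.14 for Cxcl11 (adjusted p = 0.35), −0.66 ± 0.19 for Cxcl9 (adjusted p = 0.393) and −0.17 ± 0.10 for Cxcl10 (adjusted p = 0.749), so none passed the threshold (SE, 8 arrays against 7, limma). At 8 weeks the differences were −0.88 ± 0.28 for Cxcl9 (adjusted p = 0.607), −0.55 ± 0.20 for Cxcl11 and −0.36 ± 0.15 for Cxcl10 (adjusted p = 0.687 for both). Against control, Cxcl9 differed by −0.26 ± 0.26 on HFD-EPA/DHA and by 0.62 ± 0.28 on HFD-corn oil at 8 weeks (adjusted p = 0.902 and 0.551). The receptor gene Cxcr3 was at 7.51 ± 0.17 on HFD-EPA/DHA (SD, n = 4) and 7.61 ± 0.15 on HFD-corn oil (SD, n = 3) at 8 weeks.

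Single arrays weighed on these values. The array left out had 8.72 for Cxcl9 and 6.79 for Cxcl11, below all others of the 24, and 7.05 for Cxcl10. With it, the differences at 8 weeks were −0.35 for Cxcl9 and −0.19 for Cxcl11, and those over both times −0.40 and −0.34. Without replicate 1 of HFD-corn oil at 8 weeks, Cxcl11 was called over both times (−0.66, adjusted p = 0.0397). Its difference at 8 weeks was −0.83 without that mouse and −0.28 without replicate 2 of the same group.

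**Figure D2:**
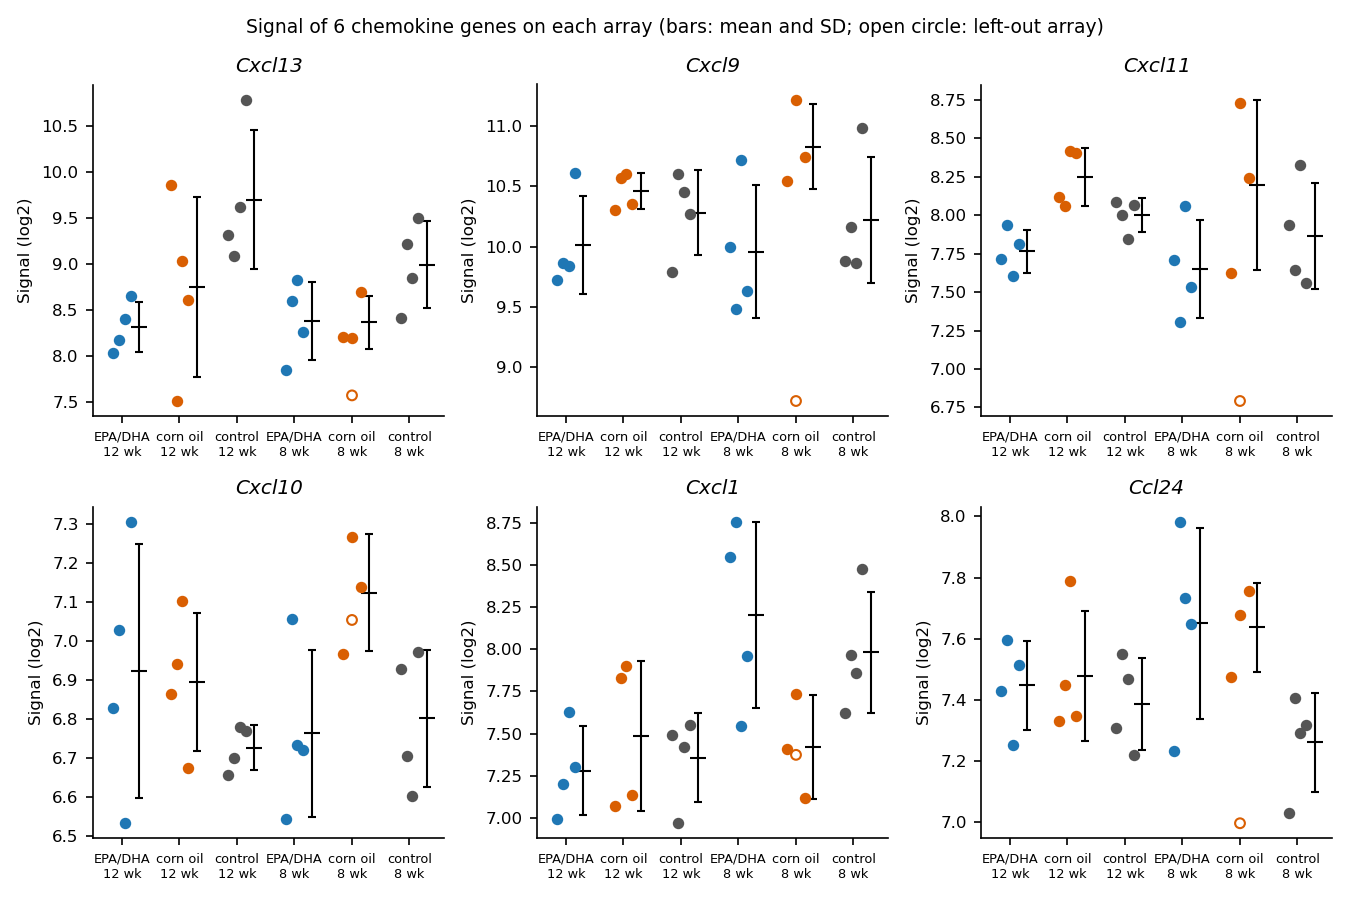
Signal (log2) of Cxcl13, Cxcl9, Cxcl11, Cxcl10, Cxcl1 and Ccl24 on each array, by diet and week; filled points are mice, bars the mean and SD of a group, and the open circle is the array that was left out. Cxcl13 does not overlap between HFD-EPA/DHA and control at 12 weeks, and the open circle lies at 8.72 for Cxcl9.

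Genes induced by interferon gamma, other than the chemokines themselves, were set beside Cxcl9. Of the 21 measured, 18 were below 0 in HFD-EPA/DHA relative to HFD-corn oil over both times, with a median of −0.11 on the log2 scale, against 0.018 over all probe sets, and 0 were called (0.0653% of all probe sets). Tap1, the peptide transporter of antigen presentation (−0.31 ± 0.074, adjusted p = 0.226), Psmb9, a subunit of the immunoproteasome (−0.31 ± 0.094, adjusted p = 0.463), and the guanylate-binding protein Gbp7 (−0.33 ± 0.11, adjusted p = 0.486) had the smallest p among them. Across the 23 mice, after the group means were removed, Cxcl9 followed the mean of the list, with Pearson's r = 0.80 (adjusted permutation p = 0.0038) and Spearman's rho = 0.71 (adjusted permutation p = 0.011). The relation kept r = 0.74 without the 2 mice farthest out in Cxcl9, and was r = 0.85 at 12 weeks and r = 0.77 at 8 weeks. Among the 3 CXCR3 ligand genes, r was 0.36 for Cxcl9 and Cxcl10, 0.22 for Cxcl9 and Cxcl11, and 0.02 for Cxcl10 and Cxcl11, with adjusted permutation p of 0.37, 0.51 and 0.92, and rho of 0.38, 0.12 and 0.04, with adjusted permutation p of 0.25, 0.74 and 0.87. Without the 2 mice farthest out these r were 0.38, 0.27 and −0.08. At 12 weeks they were 0.65, −0.04 and 0.31, and at 8 weeks 0.14, 0.30 and −0.11.

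**Figure D3:**
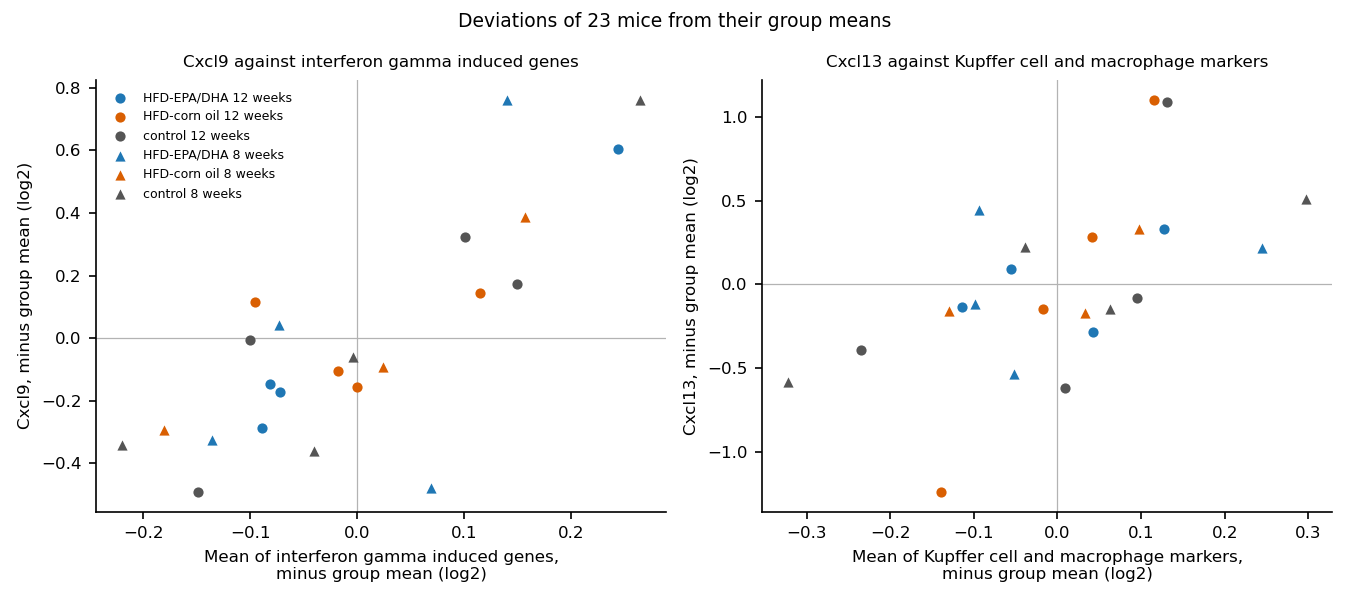
Deviations of the 23 mice from their group means (log2): Cxcl9 against the mean of 21 interferon gamma induced genes on the left, and Cxcl13 against the mean of 15 Kupffer cell and macrophage markers on the right; colours are diets, circles 12 weeks and triangles 8 weeks. The points rise together in both panels, with r = 0.80 on the left and r = 0.59 on the right.

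The promoters of Cxcl9 and Cxcl10 are shown because both encode CXCR3 ligands, and none was at hand for Cxcl11. Both genes had unadjusted p under 0.05 in HFD-EPA/DHA relative to HFD-corn oil at 8 weeks, among 5 of the 51 members, and neither was called. The sequences are from RefSeq in build GRCm38.p6, at chr5:92328030-92328329 and chr5:92348840-92349139, both on the − strand and written 5′ to 3′ along the gene. Capitals mark GGGANTTCC, a form of the NF-kB site, and the core of the interferon-stimulated response element (GAAA, any 2 bases, GAAA), both searched on both strands. The NF-kB form begins at −42 in Cxcl9 and at −103 in Cxcl10, counted from the annotated start, and the interferon element at −213 in Cxcl10.
Cxcl9: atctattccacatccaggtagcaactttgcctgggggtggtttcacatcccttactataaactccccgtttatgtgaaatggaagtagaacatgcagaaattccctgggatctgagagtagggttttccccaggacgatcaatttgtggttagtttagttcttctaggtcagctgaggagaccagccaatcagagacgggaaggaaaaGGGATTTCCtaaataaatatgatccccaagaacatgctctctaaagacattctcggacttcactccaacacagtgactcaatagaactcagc
Cxcl10: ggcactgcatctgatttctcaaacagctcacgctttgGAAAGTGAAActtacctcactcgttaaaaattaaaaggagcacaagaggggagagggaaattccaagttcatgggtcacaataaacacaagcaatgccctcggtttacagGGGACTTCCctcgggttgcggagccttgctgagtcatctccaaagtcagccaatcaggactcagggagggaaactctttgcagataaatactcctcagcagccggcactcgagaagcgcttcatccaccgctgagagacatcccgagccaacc

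Of the 51 members, 37 had a promoter in the table. The NF-kB form was in 3 of them (Cxcl9, Cxcl10 and Ccl25) and in 1.69% of 27025 promoters of all genes. The interferon element was in 2 (Cxcl10 and Cxcl14) and in 3.49% of all. The letters of both were chosen with the sequences in view, and a match describes the sequence alone. Other forms of either site were not searched, so stretches without capitals may hold them.

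Cxcl1 encodes a neutrophil attractant that acts through CXCR2. At 8 weeks its log2 signals were 8.55, 8.76, 7.55 and 7.96 on HFD-EPA/DHA and 7.41, 7.74 and 7.12 on HFD-corn oil, against 7.62, 7.97, 7.86 and 8.48 in control mice. At 12 weeks they were 6.995, 7.2, 7.63 and 7.30 on HFD-EPA/DHA and 7.07, 7.83, 7.90 and 7.13 on HFD-corn oil, against 7.49, 6.97, 7.42 and 7.55 in control mice. The ranges of the diets overlapped at both times, and those of the 12- and 8-week control mice did not. The difference of HFD-EPA/DHA from HFD-corn oil at 8 weeks was 0.78 ± 0.26 (adjusted p = 0.665), and that of 12 from 8 weeks was −0.92 ± 0.24 on HFD-EPA/DHA (adjusted p = 0.674) and −0.62 ± 0.24 in control mice (adjusted p = 0.62). None was called by limma. Without replicate 3 of HFD-EPA/DHA at 8 weeks, the lowest of its group, the F test called Cxcl1 alone.

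The other neutrophil attractants were not called either. Cxcl2, an early NF-kB target, had the smallest spread of any member within groups (SD 0.07), and Cxcl5 had an F test adjusted p of 0.998. Cxcl15, known from mouse lung, was at 7.05 ± 0.07 on HFD-EPA/DHA and 7.29 ± 0.19 in HFD-corn oil mice at 12 weeks (SD, n = 4 each), a difference of −0.24 ± 0.11 (SE, adjusted p = 1). The receptor Cxcr2 was at 6.83 ± 0.28 on HFD-EPA/DHA and 6.71 ± 0.12 in control mice at 8 weeks (SD, n = 4 each). Across mice, Cxcl1 and the mean of 27 NF-kB targets and inflammatory cytokines gave r = 0.23 (adjusted permutation p = 0.51) and rho = 0.13 (adjusted permutation p = 0.74). The r was 0.02 without the 2 mice farthest out in Cxcl1, −0.24 at 12 weeks and 0.50 at 8 weeks, and no relation was shown. Neutrophil markers summed to 763 to 1040 on HFD-EPA/DHA at 8 weeks and to 791 to 819 on HFD-corn oil, against 760 to 816 in control mice, and their part in the Cxcl1 values was not tested.

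Among the CC chemokines, ligands of CCR1 attract monocytes and other myeloid cells. Ccl6 was at 8.36, 8.29, 8.23 and 8.65 on HFD-EPA/DHA and 8.22, 8.35, 8.56 and 8.48 on HFD-corn oil at 12 weeks, against 8.59, 8.76, 8.95 and 8.59 in control mice. All HFD-corn oil mice lay below the control mice, and so did 3 of the 4 on HFD-EPA/DHA. The difference was −0.34 ± 0.15 on HFD-EPA/DHA (adjusted p = 0.547). For HFD-corn oil the difference came to −0.32 ± 0.15 (adjusted p = 0.578). Ccl9, one of the brightest members, was at 10.85, 11.24 and 10.93 on HFD-corn oil at 8 weeks, against 11.35, 11.25, 11.23 and 11.55 in control mice, a difference of −0.34 ± 0.12 (adjusted p = 0.347). The left-out array had 10.72, and with it the difference was −0.41 (adjusted p = 0.134). Ccl5, the T cell attractant RANTES, had an F test adjusted p of 0.908.

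The receptor gene Ccr1 was at 6.19, 6.39, 6.35 and 6.37 on HFD-EPA/DHA at 12 weeks, against 6.25, 6.92, 6.64 and 6.63 in control mice. Only 1 control mouse lay within the range of the HFD-EPA/DHA mice. The difference was −0.29 ± 0.11 (adjusted p = 0.447). For HFD-corn oil it was −0.219 ± 0.11 (adjusted p = 0.637). In HFD-EPA/DHA vs. control at 12 weeks 0 of the 6 CCR1 ligands and receptor were above 0, with a median of −0.15, against −0.0089 over all probe sets. In HFD-corn oil vs. control 2 of the 6 were above 0 at that time, with a median of −0.17, against −0.0093. At 8 weeks 5 of the 6 were above 0 on HFD-EPA/DHA, with a median of 0.029, against 0.0057 over all probe sets. On HFD-corn oil 3 of the 6 were, with a median of 0.016, against −0.029. The 15 Kupffer cell and macrophage markers had a median of −0.26 in HFD-EPA/DHA vs. control at 12 weeks and of 0.08 at 8 weeks. In HFD-corn oil vs. control these medians were −0.18 and 0.18. The part of these markers in the CCR1 values was not tested.

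Ccl24, the eotaxin that attracts eosinophils through CCR3, was at 7.23, 7.98, 7.73 and 7.65 on HFD-EPA/DHA and 7.48, 7.68 and 7.76 on HFD-corn oil at 8 weeks, against 7.03, 7.41, 7.29 and 7.32 in control mice. The HFD-corn oil mice lay above all control mice, as did 3 of 4 on HFD-EPA/DHA. The difference was 0.39 ± 0.13 on HFD-EPA/DHA (adjusted p = 0.302). For HFD-corn oil the difference came to 0.38 ± 0.14 (adjusted p = 0.418). The left-out array was at 6.997, and with it the second difference was 0.22 (adjusted p = 0.663). At 12 weeks the group means were 7.45 ± 0.15 on HFD-EPA/DHA and 7.48 ± 0.21 in HFD-corn oil mice, against 7.39 ± 0.15 in control mice (SD, n = 4 each).

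Ccl22, a ligand of CCR4 made by macrophages and dendritic cells, lay below the array medians on every array. On HFD-corn oil at 8 weeks it was at 6.34, 6.55 and 6.36, against 6.15, 6.15, 5.85 and 6.23 in control mice. These groups did not overlap, and the difference was 0.32 ± 0.11 (adjusted p = 0.311). Ccr8, the receptor of CCL1, was at 6.74, 6.60, 6.46 and 6.29 on HFD-EPA/DHA at 12 weeks, against 6.84, 6.72, 6.78 and 6.72 on HFD-corn oil, a difference of −0.24 ± 0.10 (adjusted p = 1). The monocyte attractant Ccl7 had an F test adjusted p of 0.79. Ccl2, the main ligand of CCR2, reached 8.32 in 1 HFD-EPA/DHA mouse at 8 weeks, where the other 3 had 7.40, 7.14 and 6.91.

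Of the pairs of a single ligand and a single receptor, Cxcl12 and Cxcr4 hold haematopoietic cells and lymphocytes in place. Cxcl12 had group means between 11.27 and 11.53, with an F test adjusted p of 0.741. Cxcr4 was at 7.42, 7.53, 7.55 and 7.56 on HFD-EPA/DHA and 7.58, 7.34, 7.48 and 7.60 on HFD-corn oil at 12 weeks, against 7.19, 7.35, 7.51 and 7.28 in control mice. Over both times its difference between HFD and control mice was 0.21 ± 0.07 (adjusted p = 0.168). All 6 CXC receptors were above 0 in that comparison, with a median of 0.09, and 0 of them were called. Over all probe sets 44.8% were above 0, with a median of −0.011, and 2.74% were called. Of the CC receptors 6 of 9 were above 0 (median 0.03), and of the C and CX3C receptors 1 of 2 (median −0.05).

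Cxcl16, which also binds oxidised lipoprotein, was at 9.76, 9.76, 9.84 and 9.83 on HFD-EPA/DHA at 12 weeks, against 9.86, 10.09, 10.08 and 10.17 in control mice. The groups did not overlap, and the difference of −0.25 ± 0.11 was not called (adjusted p = 0.517). The group mean of its receptor Cxcr6 was 6.98 ± 0.37 on HFD-EPA/DHA and 6.90 ± 0.16 in control mice at that time (SD, n = 4 each). XCL1 is released by NK and T cells and binds XCR1 on cross-presenting dendritic cells. Xcl1 differed by −0.30 ± 0.13 between HFD-corn oil and control mice at 12 weeks (adjusted p = 0.504), with 6.71, 6.65, 6.51 and 6.53 on HFD-corn oil, against 6.90, 7.24, 6.96 and 6.5 in control mice. Xcr1 differed by −0.29 ± 0.11 between HFD-EPA/DHA and control mice at 8 weeks (adjusted p = 0.438), with 7.89, 7.47, 7.45 and 7.36 on HFD-EPA/DHA, against 7.70, 7.60, 7.98 and 8.04 in control mice. In both pairs of groups 1 mouse made the ranges overlap.

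The ligands and receptors of mucosal and skin homing gave small differences. Ccl27a, a ligand of CCR10, was at 8.29, 8.07, 8.31 and 8.20 on HFD-EPA/DHA at 8 weeks, against 8.43, 8.76, 8.41 and 8.38 in control mice, with no overlap and a difference of −0.28 ± 0.11 (adjusted p = 0.479). The gut homing receptor Ccr9 was at 6.85, 6.85, 6.65 and 6.73 on HFD-corn oil at 12 weeks, against 6.82, 6.58, 6.12 and 6.54 in control mice, a difference of 0.25 ± 0.11 (adjusted p = 0.555). Ccl20 had an F test adjusted p of 0.906. Its receptor Ccr6 was at 6.46, 6.52, 6.59 and 6.64 on HFD-EPA/DHA at 12 weeks, against 6.33, 6.30, 6.36 and 6.34 on HFD-corn oil, without overlap. It was higher on HFD-EPA/DHA than on HFD-corn oil by 0.22 ± 0.11 at 12 weeks and by 0.25 ± 0.12 at 8 weeks (adjusted p = 1 and 0.715), on a dim probe set (mean 6.42).

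**Figure D4:**
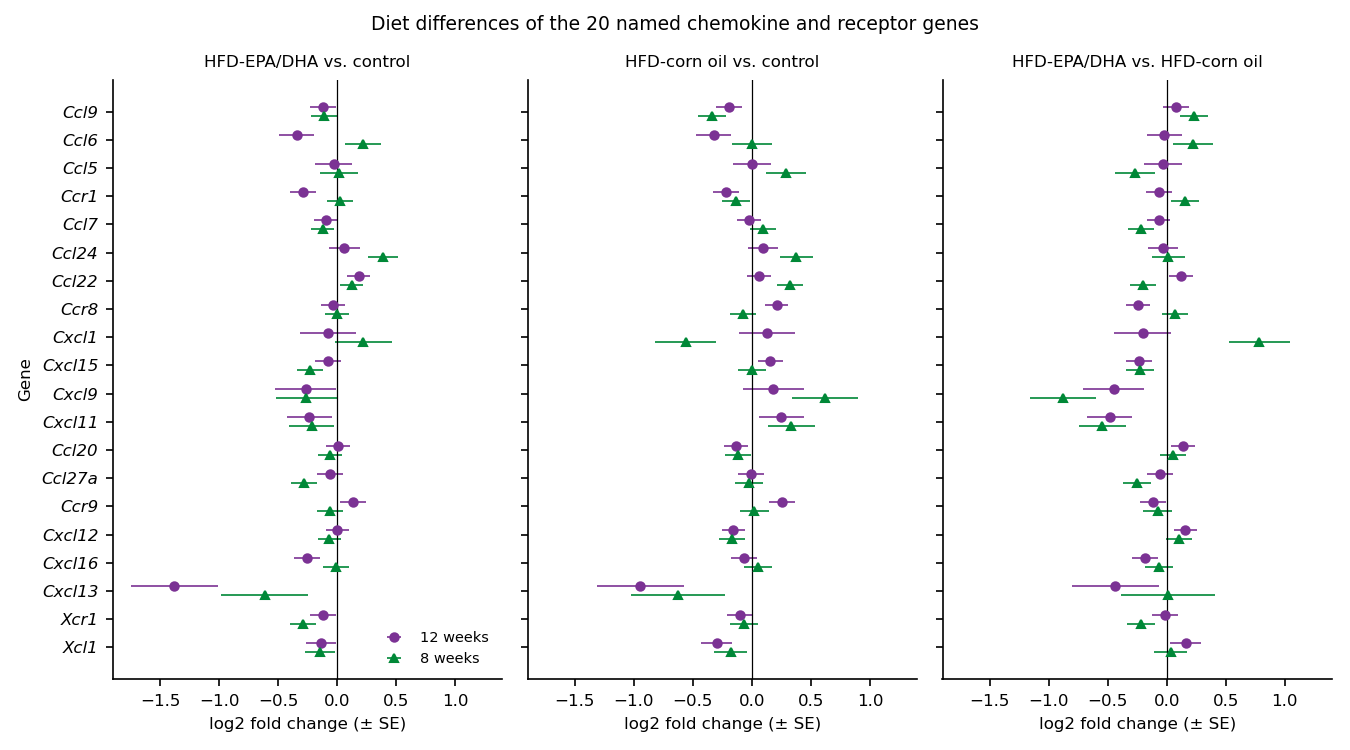
Log2 fold change with its SE for the 20 genes named by rule, for each HFD against control in the panels on the left and in the middle and HFD-EPA/DHA against HFD-corn oil on the right; circles are 12 weeks and triangles 8 weeks. Cxcl13 lies farthest below 0 against control (−1.38 on HFD-EPA/DHA at 12 weeks), and Cxcl9 and Cxcl11 lie below 0 at both times in the panel on the right.

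Between the times no member was called. For 12 vs. 8 weeks, 6 members had unadjusted p under 0.05 on HFD-EPA/DHA (5.49% of all probe sets, with 0% called), 0 on HFD-corn oil (3.32%, with 0% called) and 1 in control mice (6.89%, with 0.00967% called). On HFD-EPA/DHA they were Cxcl1, Ccr1, Ccl6 and the stromal chemokine Cxcl14 on the lower side at 12 weeks, and Ccl27a and Xcr1 on the higher side. The change of a diet difference with time had unadjusted p under 0.05 for 2 members in HFD-EPA/DHA vs. control (4.95%, with 0% called), 0 in HFD-corn oil vs. control (3.64%, with 0% called) and 3 in HFD-EPA/DHA relative to HFD-corn oil (4.46%, with 0% called). The largest of these was that of Cxcl1, −0.99 ± 0.35 (adjusted p = 0.997).

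Genes that act beside the family were counted from lists. Of 27 genes of chemokine receptor signalling, such as G proteins, kinases and arrestins, 23 lay above the median probe set, and 0 were called in any comparison. Likewise called were 0 of 11 chemokine-like genes outside the rule, 0 of 27 NF-kB targets and inflammatory cytokines, and 0 of 21 interferon gamma induced genes. Over all probe sets 0% to 2.74% were called in these comparisons, so lists of this size would give few or no calls in any case. The median log2 fold change of the NF-kB list was −0.09 in HFD-EPA/DHA vs. control at 12 weeks and 0.10 at 8 weeks. Among the markers of 11 cell types, only Ncr1, an activating receptor of NK cells, was called: it was higher in HFD than in control mice over both times, by 0.22 ± 0.06 (adjusted p = 0.037). In that comparison 2.74% of all probe sets were called. The NK cell markers did not move together there: 4 of 8 were above 0, with a median of −0.0043. The 33 probe sets with several symbols gave 0 calls in any comparison, beside the same 0% to 2.74% of all probe sets, with a smallest adjusted p of 0.0814 in limma.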

How the data were processed

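Liver RNA of 24 mice was hybridised to Affymetrix Mouse Gene 2.0 ST arrays. The authors summarised perfect match probes with iter-PLIER and quantile-normalised them in Expression Console, which gave the deposited log2 values. No scale is stated beside these, and log2 was inferred from their range (4.39 to 13.93). The genome build of the probe sets was not given in the sources used here.

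Gene symbols came from the platform annotation, updated through Entrez IDs to RefSeq. Of the probe sets, 23521 had 1 symbol, 1820 several and 16004 none. Groups came from the labels. All 6 groups entered 1 limma fit (lmFit, contrasts.fit, eBayes; limma 3.58.1, R 4.3.3) of the 23 arrays, and p-values are two-sided and adjusted over all 41345 probe sets. Members and lists were chosen with earlier results of these data known, and so were the 7 correlations, tested by 100000 permutations within groups. Values were given for called members, the 3 members with the smallest p in each comparison of diets at 1 time, the 10 brightest, the 5 with the smallest F test p, and partner ligands or receptors. Other members with values were chosen after these were seen. Cell type markers are in 11 lists and pathway genes in 4. The script was tested on simulated data. The number of arrays limits the precision, and no depth applies.

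Alternatives were all 24 arrays, an offset of 16, probe sets above the median or with 1 symbol, renewed quantile normalization, median centring, a fit per week, eBayes with trend and robust settings, a replicate block, the mean over a gene's probe sets, and each array left out. Figures were drawn with matplotlib 3.10.9.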

Additional observations from a re-analysis of the deposited data

Results flagged for a closer look

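In the groups of 4 mice, 100 sets of values of the 20 named genes were looked at, and in 5 of them 1 mouse stood apart by Dixon's criterion, which chance gives in about 5% of sets. Cxcl9 was at 10.61 in replicate 4 of HFD-EPA/DHA at 12 weeks, where the next mouse was at 9.86. Cxcl12 was at 11.38 in replicate 3 of that group, with the next at 11.44. Ccl27a was at 8.76 and Cxcl12 at 11.70 in replicate 2 of the control mice at 8 weeks, against 8.43 and 11.50 in the next mouse of each. Cxcl15 was at 7.23 in replicate 3 of HFD-EPA/DHA at 8 weeks, with the next at 7.04. The gap was widest for Cxcl9 and next widest for Ccl27a. The Ccl27a difference between HFD-EPA/DHA and these control mice (−0.28) ranged from −0.317 to −0.19 over the alternatives run.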

How the results depend on the processing

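The count of members called in both HFDs vs. control over both times (Cxcl13 alone) was 1 under all 24 arrays, the offset, each filter and each renewed normalization, and 0 with eBayes trend and robust settings (Cxcl13 −0.89, adjusted p = 0.0858). Leaving out single arrays gave 0 to 1. Over the same arrays left out, the count was 0 to 1 for HFD-EPA/DHA vs. control at 12 weeks, where Cxcl13 was called without HFD-corn oil replicate 1 (adjusted p = 0.0487) or 2 (adjusted p = 0.0337) of that time. Neither of these HFD-corn oil arrays enters that difference, which stayed at −1.38, but both enter the estimate of the spread that all 6 groups share. The count was also 0 to 1 for HFD-EPA/DHA relative to HFD-corn oil over both times, where Cxcl11 was called without HFD-corn oil replicate 1 of 8 weeks. For the F test it was 0 to 1 as well, where Cxcl1 was called without HFD-EPA/DHA replicate 3 of 8 weeks. The log2 fold change of Cxcl13 over both times stayed between −0.995 and −0.711, with adjusted p of 0.00629 to 0.0965. No fold change followed through the alternatives turned its sign. These were the 3 members with the smallest p in each comparison of diets at 1 time. Over both times they were Cxcl13 in both HFDs vs. control, and Cxcl9 and Cxcl11 in HFD-EPA/DHA relative to HFD-corn oil. The signs of other fold changes were not followed. Same-numbered arrays of different groups did not deviate together, with correlations of −0.31 to 0.26 over 55 pairs (median 0.043), so the numbers were not taken to pair mice. With the replicate block, Cxcl13 was at −0.88 (adjusted p = 0.0265), the count was 1, and no count of members called differed from that without it. The cause of the other shifts was not tested. With 3 or 4 mice per group, differences at a single time up to −1.38 on the log2 scale (Cxcl13) did not pass, and dim members may lie at background.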
